A study of Mus musculus with 12 samples.

Results

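The pre-B cell receptor (pre-BCR) surface complex was followed in BCR-ABL1 transformed B cell precursors of the mouse. The mRNAs were those of its invariant parts and of the related Vpreb3. The genes were chosen by symbol, as the surrogate light chain genes Igll1, Vpreb1 and Vpreb2, the VpreB-like Vpreb3, and the signaling chain genes Cd79a and Cd79b. Earlier results of these data were known when they were chosen. All 6 were present among the 12151 genes of the deposited table. In cells edited at Ikzf1 and Ikzf3, all 6 mRNAs were lower than in cells given nontargeting guides when no Cre was present, from Cd79a at 57.7% of its WT level to Igll1 at 89.6%. With stabilized β-catenin, the same editing comparison called 5 of 6 lower, the exception being Igll1. Of all genes, limma called 29.3% lower with editing in ERT2 and 28.6% in Cre-ERT2 cells. Between Cre-ERT2 and ERT2 cells, the comparison for stabilized β-catenin, the mRNAs differed by -0.22 to 0.089 on the log2 scale.

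The cells came from the bone marrow of mice aged 6 to 12 weeks that carried Ctnnb1 Ex3 fl/+, a floxed exon on one copy of the β-catenin gene, and all 4 groups shared this allele and BCR-ABL1. Cas9 ribonucleoproteins had been delivered with nontargeting guides (sgNTC, called WT here) or with guides against Ikzf1 and Ikzf3 (called KO), and lines were grown from single cells. ERT2 WT and ERT2 KO cells carried a vector for the tamoxifen-binding domain alone, and Cre-ERT2 WT and Cre-ERT2 KO cells carried tamoxifen-inducible Cre, with sorting of GFP+ cells and a protocol that names 1 day of 4-hydroxytamoxifen. Each group held 3 libraries of polyadenylated RNA. Nothing in the labels says whether these were separate clones or cultures, so p-values measure the spread between these libraries, which may be technical. A difference between single-cell lines and an effect of editing cannot be told apart. No group had Cre-ERT2 without the floxed allele, so active Cre or the vector cannot be told apart from stabilized β-catenin either. Changes with stabilized β-catenin are differences between Cre-ERT2 and ERT2 cells throughout.

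The pre-BCR appears when a developing B cell has rearranged its heavy chain gene but not yet a light chain gene. VpreB and lambda5, the product of Igll1, together stand in for the light chain and pair with the μ heavy chain encoded by Ighm. Cd79a and Cd79b encode Igα and Igβ, which carry the complex to the membrane and signal through cytoplasmic tyrosine motifs (ITAMs) that recruit Syk. Vpreb3 encodes a VpreB-like chain that binds newly made receptor chains inside the cell. Ikaros (Ikzf1) and Aiolos (Ikzf3) are zinc finger transcription factors of the lymphoid lineage that are known to act on genes of this complex.

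The sequences that bear on these measurements are the sites that were edited, the coding bases of the signaling motifs, and the VpreB copies that reads have to be told apart by. The guides are shown first, since every WT to KO comparison rests on them, in lower case, with the 3 bases that follow them on the matched strand, the PAM of Cas9, in capitals. Coordinates are those of the 20 guide bases. The Ikzf1 guide lay in coding exon 3 of 8 of the longest Ikzf1 transcript, antisense to it, at chr11:11707798-11707817 (GRCm38). The Ikzf3 guide lay in coding exon 4 of 8, along the transcript, at chr11:98490523-98490542.
Ikzf1 guide: ctggagtgtcactgactgggGGG
Ikzf3 guide: attatgaagccggagcccatGGG

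Small insertions or deletions at these sites need not change the amount of mRNA, so the mRNA of the edited genes does not check the editing. Ikzf1 was at 13.75, 13.74 and 13.73 on the deposited log2 scale in the ERT2 WT libraries and at 14.75, 14.74 and 14.76 in the ERT2 KO libraries, a difference of 1.01 ± 0.018 (SE, adjusted p = 1.9e-13 in limma). The KO-labelled libraries were thus the higher ones, without overlap. Ikzf3 was lower in the KO libraries, at 10.98 ± 0.014 (SD, n = 3) against 11.63 ± 0.049 in ERT2 cells, a difference of -0.65 (adjusted p = 5.2e-08). With Cre-ERT2 the differences were 0.90 for Ikzf1 and -0.70 for Ikzf3. Groups are named by their labels throughout.

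The labelled cell type was checked against markers. All 12 listed precursor markers were in the table, and the log2 of their summed level ran from 16.79 to 16.83 in ERT2 WT, 16.97 to 16.99 in Cre-ERT2 WT, 16.33 to 16.35 in ERT2 KO and 16.35 to 16.40 in Cre-ERT2 KO libraries. Editing called 7 of these 12 lower in ERT2 and 9 lower in Cre-ERT2 cells, but 3 (Rag1, Rag2 and Cd22) higher in both. The shares over all genes were 29.3% and 28.6% called lower and 59.0% and 58.9% called in either direction. Of 8 T lineage markers, 2 were in the table (Lck and Cd2) and of 10 myeloid markers 2 (Itgam and Lyz2), while the defining genes Cd3e, Cd3d, Cd3g, Csf1r, Mpo and Elane and all 5 erythroid markers were not among the rows. The summed T lineage level was 11.05 to 11.22 in WT and 9.47 to 9.62 in KO libraries, and the summed myeloid level 7.57 to 7.62 in WT and 8.45 to 8.76 in KO libraries. The myeloid pair moved in opposite directions with editing, Lyz2 by 0.99 and 1.23 and Itgam by -0.15 and -0.18 in ERT2 and Cre-ERT2 cells, and all 4 changes were called. The summed level of the 4 plasma cell markers in the table (of 5 listed) was 12.72 to 12.78 in ERT2 WT, 12.91 to 12.97 in Cre-ERT2 WT, 12.19 to 12.25 in ERT2 KO and 12.56 to 12.57 in Cre-ERT2 KO libraries. With editing in ERT2 and Cre-ERT2 cells, Irf4 fell by 0.77 and 0.52 and Xbp1 by 0.27 and 0.15. Sdc1 rose by 0.19 and 0.26, and Prdm1 was not called in either. Of these markers, Prdm1 rose with stabilized β-catenin by 0.66 in WT and 0.64 in KO cells (adjusted p = 2.2e-09 and 1.7e-09). Irf4 rose as well, by 0.26 and 0.51, while Sdc1 fell by 0.17 and 0.11 (adjusted p = 0.0020 and 0.030 in limma). Xbp1 was not called in either background. The 6 mature B markers in the table (of 7) summed to 10.31 to 10.39 over all libraries. This sum hid opposite changes with editing in ERT2 and Cre-ERT2 cells. Cd74 fell by 0.63 and 0.54 and H2-Ab1 rose by 0.58 and 0.67, and each of these changes was called. The part of these shifts in the results below was not tested. Library medians ran from 9.06 to 9.11. Counting depth is unknown, because the deposited table gives normalized log2 values without counts.

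**Figure D1:**
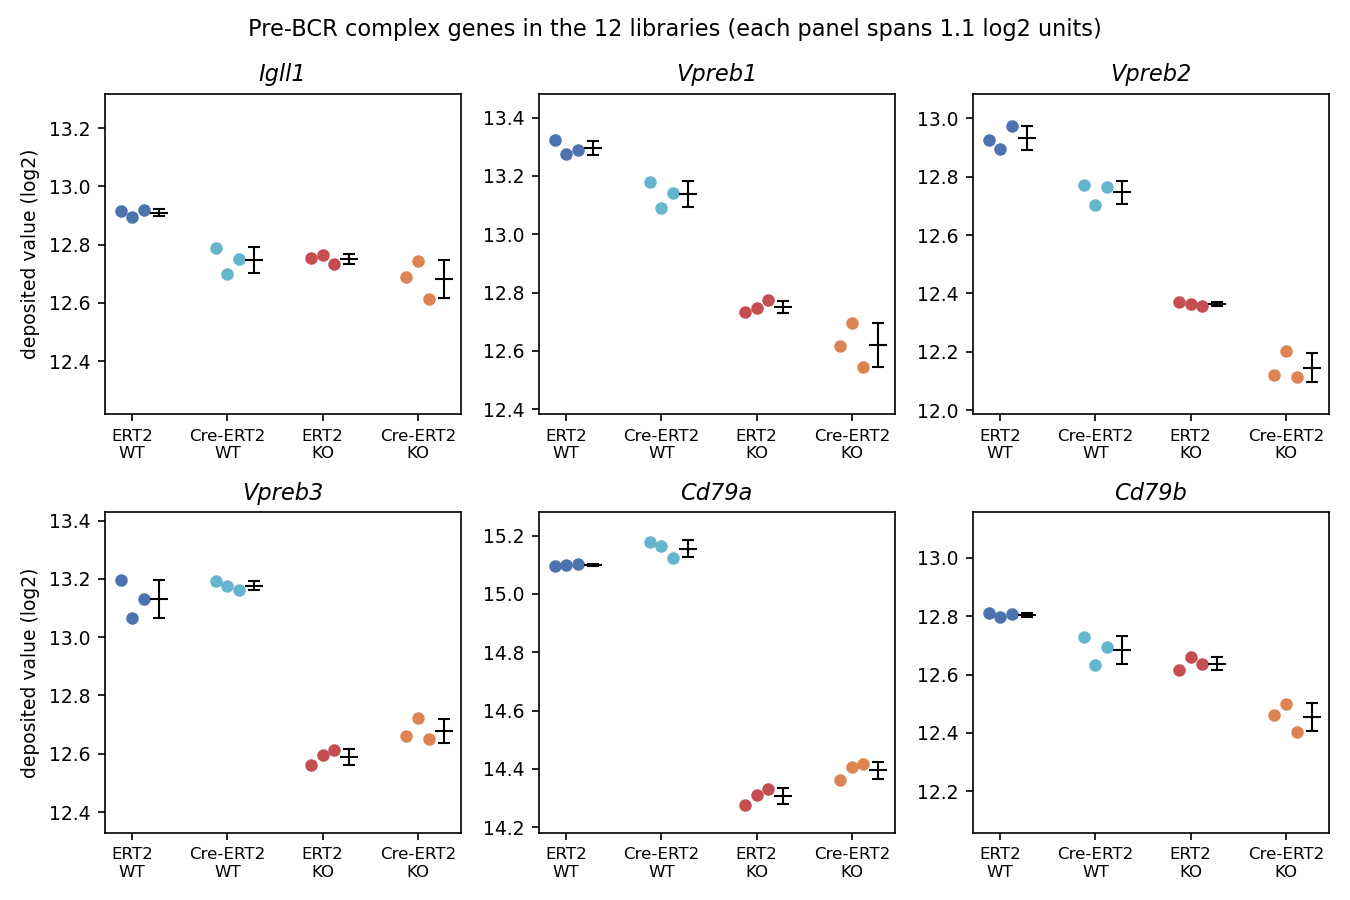
Deposited log2 value (y axis) of each pre-BCR complex gene in the 12 libraries (points, 3 per group) with the group mean and SD (bars); every panel spans the same log2 range. The KO points of Vpreb1, Vpreb2, Vpreb3 and Cd79a sit below all WT points, while those of Igll1 overlap between Cre-ERT2 WT (12.70 to 12.79) and Cre-ERT2 KO (12.61 to 12.74).

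The surrogate light chain genes and Vpreb3 are described first. Igll1 lies on the minus strand at chr16:16860671-16863985 (GRCm38, ENSMUSG00000075370), and Vpreb1 follows on the same strand at chr16:16868403-16870843 (ENSMUSG00000059305), with their annotated 5′ ends 6.86 kb apart. Vpreb2 is on the plus strand of the same chromosome at chr16:17980428-17981273 (ENSMUSG00000059280), and Vpreb3 on chromosome 10 at chr10:75943057-75949657 (ENSMUSG00000000903). All 4 are annotated as protein coding genes.

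Igll1, whose product lambda5 carries the constant-like part of the surrogate light chain, changed least with editing. It was at 12.92, 12.90 and 12.92 in ERT2 WT libraries and at 12.76, 12.77 and 12.73 in ERT2 KO libraries. These groups did not overlap, and the difference of -0.16 ± 0.031 (SE) was called (adjusted p = 7.8e-04). With Cre-ERT2, WT libraries were at 12.79, 12.70 and 12.75 and KO libraries at 12.69, 12.74 and 12.61. The second KO library lay among the WT libraries, and the difference of -0.065 (95% interval -0.13 to 0.0033) was not called (adjusted p = 0.094). Without Cre-ERT2 KO replicate 2 it was -0.095 (adjusted p = 0.019), and without Cre-ERT2 WT replicate 2 it was -0.088 (adjusted p = 0.041), so the lack of a call rested on single libraries.

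Vpreb1 encodes the variable-like partner of lambda5. Its values were 13.32, 13.28 and 13.29 in ERT2 WT and 12.73, 12.75 and 12.77 in ERT2 KO libraries. Every KO library was lower than every WT library, by -0.54 ± 0.035 on average (adjusted p = 3.2e-08), which left 68.6% of the WT level (95% interval 65.0 to 72.3%). In Cre-ERT2 cells the libraries were at 13.18, 13.09 and 13.14 (WT) and at 12.62, 12.70 and 12.54 (KO). The difference there was -0.52 (adjusted p = 5.0e-08), again without overlap.

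Vpreb2 is a near copy of Vpreb1 in the mouse genome. It was at 12.93, 12.90 and 12.98 in ERT2 WT libraries, 12.37, 12.36 and 12.36 in ERT2 KO, 12.77, 12.70 and 12.77 in Cre-ERT2 WT and 12.12, 12.20 and 12.11 in Cre-ERT2 KO. The groups stood in the same order as for Vpreb1, with no overlap between any neighbours. The KO libraries differed from WT by -0.57 with ERT2 (adjusted p = 4.2e-09) and by -0.60 with Cre-ERT2 (adjusted p = 2.4e-09).

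The annotated coding sequences of Vpreb1 and Vpreb2 are both 426 bases long and differ at 9 bases, an identity of 97.9%. Of 710 windows of 50 bases in the Vpreb2 transcript, 32.8% also occur in the Vpreb1 transcript, and of 660 windows of 100 bases 14.7% do. Most windows of 100 bases thus differ between the transcripts. For reads from shared windows, the split between both genes is uncertain and depends on how the quantification assigned them. The stretch of 60 coding bases with the most differences (coding bases 328 to 387, in exon 2 of each gene, 5 differences in capitals) shows how few coding positions tell them apart. It lies at chr16:16868638-16868697 on the minus strand for Vpreb1 and at chr16:17980979-17981038 on the plus strand for Vpreb2.
Vpreb1: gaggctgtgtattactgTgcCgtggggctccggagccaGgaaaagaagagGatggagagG
Vpreb2: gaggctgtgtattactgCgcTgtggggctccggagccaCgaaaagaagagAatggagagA

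Since the sum of both genes does not depend on that split, it was computed as well, after the values had been seen. The summed level differed in KO cells by -0.56 with ERT2 (adjusted p = 7.3e-09) and by -0.55 with Cre-ERT2 (adjusted p = 7.5e-09). These differences lay between those of the single genes.

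Vpreb3 is annotated apart from the other members and encodes the intracellular VpreB-like chain. Its libraries were at 13.20, 13.07 and 13.13 in ERT2 WT and at 12.56, 12.60 and 12.61 in ERT2 KO. The KO libraries were lower without overlap, by -0.54 ± 0.032 (adjusted p = 1.4e-08). Cre-ERT2 WT libraries at 13.19, 13.18 and 13.16 and Cre-ERT2 KO libraries at 12.66, 12.72 and 12.65 differed by -0.50 (adjusted p = 2.8e-08).

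The signaling pair moved by unequal amounts. Cd79a, which encodes Igα, lies on the plus strand at chr7:24897381-24902197 (ENSMUSG00000003379). It was the most abundant member and changed most, from 15.10 in each ERT2 WT library to 14.28, 14.31 and 14.33 in ERT2 KO. This difference of -0.79 ± 0.022 (adjusted p = 8.2e-12) was many times the spread between replicates and corresponds to 57.7% of WT (95% interval 55.9 to 59.6%). In Cre-ERT2 cells it fell from 15.18, 15.16 and 15.12 to 14.36, 14.41 and 14.42, by 0.76 (adjusted p = 1.2e-11).

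Cd79b encodes Igβ and lies on the minus strand at chr11:106311341-106314762 (ENSMUSG00000040592). Its ERT2 WT libraries were at 12.81, 12.80 and 12.81 and its ERT2 KO libraries at 12.62, 12.66 and 12.63. They did not overlap, yet the difference was only -0.17 ± 0.029 (adjusted p = 2.7e-04). With Cre-ERT2 the libraries were at 12.73, 12.63 and 12.69 (WT) and 12.46, 12.50 and 12.40 (KO), a difference of -0.23 (adjusted p = 1.7e-05).

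Both signaling chains carry a single ITAM, whose paired tyrosines are phosphorylated upon receptor engagement. The coding bases of the motif, found by translating the annotated coding sequences, are shown with the tyrosine codons in capitals because they are what the complex signals through. Each run of 54 coding bases spans an exon junction, from exon 4 to 5 of Cd79a (chr7:24901287-24901469, intron included) and from exon 5 to 6 of Cd79b (chr11:106311867-106312021, intron included).
Cd79a: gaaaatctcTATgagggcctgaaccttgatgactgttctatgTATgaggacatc
Cd79b: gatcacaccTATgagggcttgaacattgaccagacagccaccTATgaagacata

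The count of members was set against all genes. Since the members were chosen with earlier results known, the counts and the permutation tests below describe these libraries. They are no independent evidence about the complex. The editing comparison called 59.0% of all genes in ERT2 cells (7175 of 12151) and 58.9% in Cre-ERT2 cells at an adjusted p under 0.05 in either direction, and 29.3% and 28.6% were called lower. All 6 members were among those called lower in ERT2 cells and 5 of 6 in Cre-ERT2 cells. By position alone, 6 of 6 members in ERT2 cells and 5 of 6 in Cre-ERT2 cells had all 3 KO libraries below all 3 WT libraries, against 32.1% and 30.7% of all genes. Of all genes, 1.15% had a lower change than Cd79a in ERT2 cells and 2.34 to 2.56% a lower change than Vpreb1, Vpreb2 or Vpreb3, but 17.2% did for Cd79b and 18.2% for Igll1. The median change of the 6 members was -0.54 in ERT2 cells, against 0.0016 over all genes.

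When ERT2 and Cre-ERT2 cells were combined, exchanging the WT and KO labels within each vector in all 400 ways, Vpreb1, Vpreb2, Vpreb3, Cd79a and Cd79b each reached the smallest p this exact permutation test can give (0.005, 2-sided). Igll1 gave an exact p of 0.01 with a mean difference of -0.11, being lower on average in both vectors. These p-values are not adjusted for the 12 such tests of the members. Within 1 vector, 3 libraries against 3 cannot go below an exact permutation p of 0.1.

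Stabilized β-catenin was compared with ERT2 control cells in each background. In WT cells 4 members were called lower with Cre-ERT2, with 11.9% of all genes called in either direction and 5.95% called lower. Vpreb2 fell by 0.19 ± 0.030 (adjusted p = 0.0012), Igll1 by 0.16 ± 0.031 (adjusted p = 0.0045), Vpreb1 by 0.16 ± 0.035 (adjusted p = 0.010) and Cd79b by 0.12 ± 0.029 (adjusted p = 0.017). All 3 Cre-ERT2 libraries lay below all 3 ERT2 libraries for each of these 4 genes, a position shared by 15.9% of all genes. The call of Cd79b was lost without ERT2 WT replicate 1 (adjusted p = 0.058) or Cre-ERT2 WT replicate 2 (adjusted p = 0.073). Cd79a differed by 0.056 (95% interval 0.0089 to 0.10, adjusted p = 0.13) and Vpreb3 by 0.046 (95% interval -0.023 to 0.11, adjusted p = 0.42), and neither was called.

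In KO cells 12.6% of all genes were called and 5.33% called lower. With Cre-ERT2, Vpreb2 was lower by 0.22 ± 0.030 (adjusted p = 3.3e-04), Cd79b by 0.18 ± 0.029 (adjusted p = 0.0010) and Vpreb1 by 0.13 ± 0.035 (adjusted p = 0.027). Cd79a was higher by 0.089 ± 0.022 (adjusted p = 0.018), with every Cre-ERT2 KO library above every ERT2 KO library. Vpreb3 differed by 0.088 (95% interval 0.019 to 0.16, adjusted p = 0.0995) and Igll1 by -0.069 (95% interval -0.14 to -0.00095, adjusted p = 0.19). Vpreb1, Vpreb2 and Cd79b had all 3 Cre-ERT2 libraries below all 3 ERT2 libraries, as did 13.9% of all genes. Single libraries decided the smaller calls. The Vpreb1 call was lost without ERT2 KO replicate 1, 2 or 3 (adjusted p = 0.051, 0.072 and 0.091) or Cre-ERT2 KO replicate 1 or 3 (adjusted p = 0.065 and 0.081), and the Cd79a call without ERT2 KO replicate 1 or 2 (adjusted p = 0.076 and 0.053) or Cre-ERT2 KO replicate 2 or 3 (adjusted p = 0.055 and 0.055).

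With both backgrounds together, the exact stratified permutation test gave p = 0.005 for Vpreb1, Vpreb2, Cd79a and Cd79b, 0.01 for Igll1 and 0.025 for Vpreb3. Mean changes over both backgrounds were -0.20 for Vpreb2, -0.15 for Vpreb1, -0.15 for Cd79b, -0.12 for Igll1, 0.067 for Vpreb3 and 0.073 for Cd79a. Vpreb3 and Cd79a thus stood on the other side of 0 from the remaining 4 members. An interaction of editing with stabilized β-catenin was called for 4.53% of all genes and for 0 of 6 members in limma, with 95% intervals that reached from -0.15 (Cd79b, lower end) to 0.19 (Igll1, upper end). Without adjustment, 0 of 6 members had a p under 0.05, since each of these intervals held 0.

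**Figure D2:**
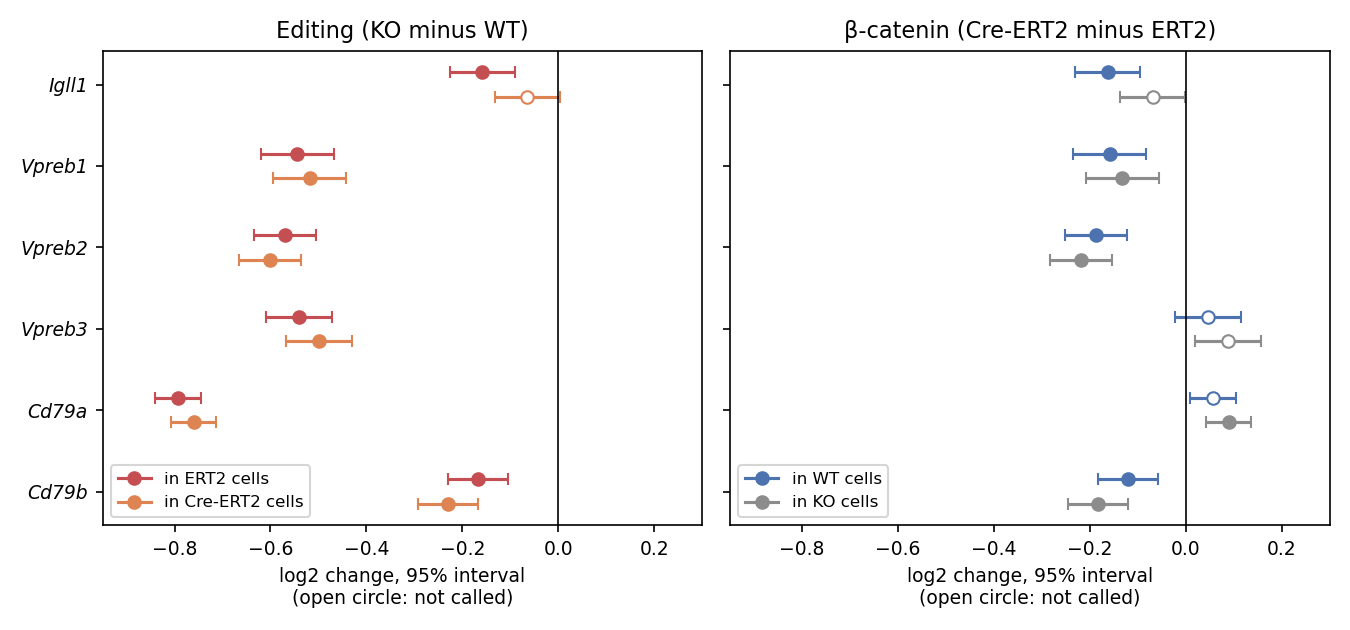
Change of each member on the log2 scale (x axis) with its 95% interval from limma, for editing at left and for stabilized β-catenin at right; filled circles were called at an adjusted p under 0.05 and open circles were not. Editing changes reach -0.79 (Cd79a in ERT2 cells), while all β-catenin changes lie between -0.22 and 0.089.

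The difference between partners of one protein complex was followed within each library, which does not depend on the scaling between libraries. These pairs were chosen with earlier results known, and their shifts restate the changes of the single genes given above. Shifts with editing are therefore given without a test. The p-values given for shifts with stabilized β-catenin are no evidence beyond the single-gene results. Igll1 minus Vpreb1 averaged -0.39 ± 0.018 (SD, n = 3) in ERT2 WT and -0.39 ± 0.00069 in Cre-ERT2 WT libraries, but -8.4e-05 ± 0.035 in ERT2 KO and 0.063 ± 0.014 in Cre-ERT2 KO libraries. On the deposited scale, Vpreb1 exceeded Igll1 in every WT library, and in KO libraries both were at about the same value. Editing shifted this balance by 0.42, and stabilized β-catenin by 0.029 (exact stratified permutation p = 0.085).

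Cd79a minus Cd79b averaged 2.29 ± 0.0093 in ERT2 WT, 2.47 ± 0.053 in Cre-ERT2 WT, 1.67 ± 0.024 in ERT2 KO and 1.94 ± 0.064 in Cre-ERT2 KO libraries (SD, n = 3 each). With editing it decreased by 0.58, and with stabilized β-catenin it was 0.22 higher (exact stratified permutation p = 0.005). The KO libraries ranged from 1.65 to 2.01 and the WT libraries from 2.29 to 2.53, without overlap. The smallest p the test can give is 0.005, and the p-values of the β-catenin shifts are not adjusted. The shift of 0.22 restates the mean changes of 0.073 for Cd79a and -0.15 for Cd79b given above, so its p is no further result.

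**Figure D3:**
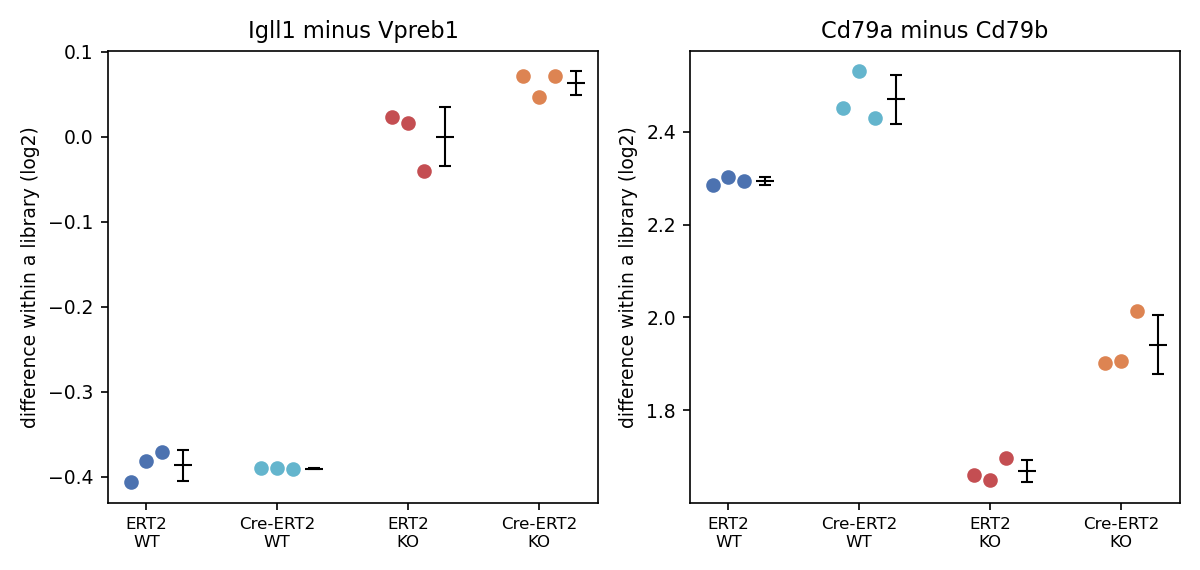
Difference between partner mRNAs within each library on the log2 scale (y axis; points, 3 per group, with mean and SD), for Igll1 minus Vpreb1 at left and Cd79a minus Cd79b at right. Igll1 minus Vpreb1 is near -0.39 in both WT groups and near 0 in both KO groups, and Cd79a minus Cd79b is lower in both KO groups.

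Levels of different members were compared per kilobase of the longest annotated coding transcript, as log2 level minus log2 length. In ERT2 WT cells Cd79a was highest at 14.56, followed by Vpreb1 at 13.68, Vpreb3 at 13.59, Vpreb2 at 13.33, Igll1 at 13.11 and Cd79b at 12.29. In Cre-ERT2 WT cells Cd79a was at 14.61, Vpreb3 at 13.63, Vpreb1 at 13.52, Vpreb2 at 13.14, Igll1 at 12.95 and Cd79b at 12.17. In ERT2 KO cells the order was Cd79a at 13.76, Vpreb1 at 13.14, Vpreb3 at 13.05, Igll1 at 12.95, Vpreb2 at 12.76 and Cd79b at 12.12. Cre-ERT2 KO cells had Cd79a at 13.85, Vpreb3 at 13.13, Vpreb1 at 13.00, Igll1 at 12.88, Vpreb2 at 12.54 and Cd79b at 11.94. On this scale Igll1 stood below Vpreb2 in both WT groups and above it in both KO groups, and Cd79a and Cd79b stayed at the ends.

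Neighbours in these orders were separated beyond the range of their 3 libraries, except Vpreb1 (12.93 to 13.08) and Igll1 (12.82 to 12.94) in Cre-ERT2 KO cells. The place of Vpreb3 depended on the transcript. With its shorter coding transcript of 625 bases in place of 729, it reached 13.81 in ERT2 WT and 13.27 in ERT2 KO cells, above Vpreb1 in both. The order depended on the division by length. On the deposited values Igll1 and Vpreb2 were both at 12.75 in Cre-ERT2 WT cells, and Cd79b (12.64) stood above Vpreb3 (12.59) and Vpreb2 (12.36) in ERT2 KO cells. Whether the deposited values had already been divided by length is not given in the sources used here.

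The members also differed in how they varied over the 12 libraries. Pearson's r between Vpreb1 and Vpreb2 was 0.99, as was that between Vpreb3 and Cd79a, while Igll1 reached 0.90 with Cd79b and 0.56 with both Cd79a and Vpreb3. These libraries share 4 group means, so r mainly describes the order of the groups, and it is given without a test. In Cre-ERT2 KO cells, replicate 2 was the highest and replicate 3 the lowest library for Igll1, Vpreb1, Vpreb2, Vpreb3 and Cd79b, and replicate 3 had the lowest array weight of all libraries (0.54).

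For each member, the 3 genes with the most similar pattern were taken by Pearson's r over the 12 libraries, from genes above the median level that varied by an SD of at least 0.25. For Cd79a these were Ptgr1, Ppt1 and Tmsb10 (r of 0.999 for each). Vpreb1 had Vpreb2, S1pr4 (0.991) and Orai2 (0.989), and Vpreb2 had Vpreb1, S1pr4 and Orai2 in turn. Vpreb3 was nearest to Ifi27 (0.994), Il2ra (0.992) and Cd79a (0.992). Igll1 had Nov (0.903), Sema6d (0.884) and Jund (0.855), and Cd79b had Jund (0.953), Fmnl1 (0.949) and Sema6d (0.938), the lowest values among the members. These rankings hold only among the 614 genes that passed the limits. Igll1 and Cd79b themselves varied less than the SD limit (0.094 and 0.14). Cd79b was therefore left out of the Igll1 ranking, although its r of 0.899 exceeded that of Sema6d.

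Around the members in the genome, the nearest measured genes did not share their changes as a block. Top3b, on the other strand, whose annotated 5′ end lies inside the Vpreb1 interval, differed by -0.011 in ERT2 KO cells (adjusted p = 0.93), and Ppm1f beyond it rose by 0.54 (adjusted p = 1.9e-08). Beside Vpreb2, Slc25a1 rose by 0.27 (adjusted p = 2.1e-07) and Dgcr6 fell by 0.38 (adjusted p = 4.8e-05). Next to Cd79a, Rps19 fell by 0.18 (adjusted p = 6.4e-04) and Arhgef1 rose by 0.19 (adjusted p = 3.6e-05). The genes on either side of Cd79b, Tcam1 and Scn4a, rose by 0.25 (adjusted p = 6.1e-07) and 0.21 (adjusted p = 1.9e-06). Near Vpreb3, Gm867 rose by 0.46 (adjusted p = 2.4e-09) and Chchd10 fell by 0.22 (adjusted p = 1.8e-05).

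Promoter sequence was examined because most members were lower together after editing of the Ikaros factors. RefSeq windows of 300 bases (GRCm38.p6, 250 before to 50 after the annotated start) were found for 5 of 6 members, all except Cd79b. The window listed for Vpreb2, which held 2 GGGAA cores at -210 and -64, was not printed. Its RefSeq start lies inside the annotated gene interval given above, but so do those of Vpreb1, Vpreb3 and Cd79a. Only the start of Igll1 meets the annotated 5′ end of the gene. The bases before the start are shown 5′ to 3′ on the gene's strand for the other 4, in lower case, with matches of GGGAA or its reverse complement TTCCC, the core that Ikaros proteins bind, in capitals. They lie at chr16:16863986-16864235 (minus) for Igll1, chr16:16869256-16869505 (minus) for Vpreb1, chr10:75948050-75948299 (plus) for Vpreb3 and chr7:24897247-24897496 (plus) for Cd79a.
Igll1: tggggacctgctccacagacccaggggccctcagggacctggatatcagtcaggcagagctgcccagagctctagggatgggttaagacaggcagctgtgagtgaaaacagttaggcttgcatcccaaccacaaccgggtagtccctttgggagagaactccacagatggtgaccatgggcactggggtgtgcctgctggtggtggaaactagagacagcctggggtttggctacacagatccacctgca
Vpreb1: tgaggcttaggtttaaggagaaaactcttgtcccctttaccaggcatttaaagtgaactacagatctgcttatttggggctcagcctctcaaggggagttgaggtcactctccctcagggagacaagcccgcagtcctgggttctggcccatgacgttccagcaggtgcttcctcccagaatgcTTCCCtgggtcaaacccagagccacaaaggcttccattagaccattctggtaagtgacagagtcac
Vpreb3: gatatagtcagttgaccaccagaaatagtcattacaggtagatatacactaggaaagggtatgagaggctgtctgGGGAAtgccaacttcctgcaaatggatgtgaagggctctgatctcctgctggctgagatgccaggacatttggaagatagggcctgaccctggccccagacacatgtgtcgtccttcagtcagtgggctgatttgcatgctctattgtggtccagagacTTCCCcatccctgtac
Cd79a: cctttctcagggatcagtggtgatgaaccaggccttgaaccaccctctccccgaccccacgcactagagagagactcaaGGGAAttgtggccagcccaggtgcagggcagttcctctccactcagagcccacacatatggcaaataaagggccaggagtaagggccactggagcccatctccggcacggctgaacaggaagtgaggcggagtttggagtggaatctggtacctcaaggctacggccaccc

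The Vpreb1 window held 1 GGGAA core, starting at base -66 from the start site, the Cd79a window held 1 at -171, and the Vpreb3 window held 2 at -175 and -16. In the Igll1 window these letters did not occur on either strand. Since 62.7% of 32841 promoter windows held at least 1 such core, its presence describes these sequences and sets them apart from few others. The EBF core CCCNNGGG occurred once, in the Igll1 window at -231, and is found in 13.7% of all windows. E-boxes, CANNTG, were counted 3 times for Igll1, 1 time for Vpreb1, 5 times for Vpreb3 (with overlapping matches at -75 and -73) and 2 times for Cd79a, against at least 1 in 72.3% of all windows. No match of one motif overlapped a match of another in these 4 windows. The Vpreb2 window, which was not printed, held 2 E-boxes, at -232 and -60. The E-box at -60 overlapped the last base of the core at -64.

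The μ heavy chain, encoded by Ighm, completes the receptor. Ighm was at 15.10, 15.09 and 15.08 in ERT2 WT and at 14.28, 14.30 and 14.29 in ERT2 KO libraries. The difference of -0.80 was called (adjusted p = 1.2e-12), beside -0.79 for Cd79a, as was that of -0.83 with Cre-ERT2 (adjusted p = 7.3e-13). Stabilized β-catenin changed Ighm by -0.017 in WT and -0.047 in KO cells, and neither change was called (adjusted p = 0.64 and 0.12). Igkc, the conventional κ light chain gene, averaged 3.96 over all libraries, near the low end of the table, whose values run from 1.76 to 18.87. Among the listed receptor chain and recombination genes, 7 of 10 were in the table. In ERT2 KO cells 4 were called lower and 2 higher, against 29.3% of all genes called lower and 59.0% called in either direction. The 2 called higher were Rag1 (0.32) and Rag2 (0.38), with adjusted p of 1.9e-05 and 5.2e-06 in limma. Of those called lower, Dntt (terminal transferase) fell by 0.87 and Il7r (interleukin 7 receptor) by 0.82, with adjusted p of 3.2e-12 and 5.1e-11.

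Signaling genes that act directly downstream of the complex were taken as a list of 26, of which 25 were in the table. In ERT2 cells, editing called 15 lower and 6 higher, with a median change of -0.22 against 0.0016 over all genes, of which 59.0% were called and 29.3% called lower. Blk, a Src family kinase, fell by 3.81 (adjusted p = 1.1e-15), Syk, the kinase recruited by the ITAMs, by 0.89 (adjusted p = 1.0e-11), and Blnk, the adaptor phosphorylated by Syk, by 0.65 (adjusted p = 3.4e-11). Pik3cd, a catalytic subunit of PI3 kinase, fell by 0.58 (adjusted p = 1.2e-08) and Fcrla by 0.50 (adjusted p = 1.0e-07). Pik3ap1, the BCAP adaptor that couples to PI3 kinase, rose by 1.05 (adjusted p = 3.6e-13). In Cre-ERT2 cells the counts were 16 lower and 7 higher (28.6% of all genes lower), with Blk at -3.60, Blnk at -0.72, Zap70 at -0.55, Syk at -0.52 and Pik3ap1 at 1.11 among the calls.

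Stabilized β-catenin called 4 of these 25 genes higher and 5 lower in WT cells, and 6 higher and 5 lower in KO cells, against 11.9% and 12.6% of all genes called in either direction. Zap70, a kinase related to Syk, rose by 0.65 in WT (adjusted p = 9.2e-08) and 0.41 in KO cells (adjusted p = 4.0e-06). Plcg2, the phospholipase activated by Blnk, rose by 0.31 and 0.43 (adjusted p = 2.3e-06 and 6.1e-08), whereas Blk fell by 0.30 in WT cells (adjusted p = 3.3e-04). Syk rose by 0.15 in WT and 0.52 in KO cells (adjusted p = 0.0016 and 3.0e-08), and Lcp2, an adaptor related to Blnk, rose by 0.26 in KO cells (adjusted p = 0.0015).

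Transcription factors known to act at genes of the complex formed a list of 21, with 20 in the table. In ERT2 KO cells 11 were called lower and 4 higher, and in Cre-ERT2 KO cells 14 were called lower and 3 higher, with median changes of -0.11 and -0.26. These counts include the edited genes themselves, Ikzf1 among those called higher and Ikzf3 among those called lower in both comparisons. Of all genes, 29.3% and 28.6% were called lower in these comparisons and 59.0% and 58.9% called in either direction. Spib, an ETS family factor, fell by 2.80 in both (adjusted p = 3.0e-14 and 3.5e-14). Irf4 fell by 0.77 while Irf8 rose by 0.96 in ERT2 cells (adjusted p = 7.9e-11 and 1.4e-11), and Tcf4, an E protein, rose by 0.77 (adjusted p = 1.1e-09). Ebf1 and Pax5, which drive B lineage genes including those of the surrogate light chain, differed by -0.045 and -0.030 in ERT2 cells and were not called (adjusted p = 0.18 and 0.49). In Cre-ERT2 cells both were lower, by 0.23 and 0.11 (adjusted p = 1.1e-05 and 0.020). Tcf3, which encodes the E2A proteins, fell by 0.29 and 0.38 in ERT2 and Cre-ERT2 cells (adjusted p = 9.2e-07 and 6.3e-08).

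Under stabilized β-catenin, 10 of these 20 factors were called higher and 3 lower in WT cells, and 9 higher and 5 lower in KO cells (11.9% and 12.6% of all genes called). Myb rose by 0.43 and 0.40 and Sox4 by 0.35 and 0.38 in WT and KO cells, with adjusted p of at most 2.5e-05. Pax5 was lower in both, by 0.22 (adjusted p = 0.0012) and 0.30 (adjusted p = 1.0e-04). Zeb2 fell by 0.37 in WT cells (adjusted p = 3.4e-04), and Irf4 rose by 0.26 and 0.51 in WT and KO cells (adjusted p = 4.0e-05 and 5.7e-08).

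Folding helpers of the endoplasmic reticulum, where receptor chains are assembled, were followed as 11 measured genes of a list of 12. In ERT2 KO cells 10 were called lower and 0 higher in limma, with a median change of -0.32, and in Cre-ERT2 KO cells 9 were lower and 1 higher (29.3% and 28.6% of all genes lower). Mzb1, a chaperone of the immunoglobulin μ chain, fell by 0.51 (adjusted p = 3.8e-08) and Calr (calreticulin) by 0.50 (adjusted p = 8.3e-10) in ERT2 cells. Canx (calnexin) was the gene not called there (0.094, adjusted p = 0.059) and was higher in Cre-ERT2 cells by 0.14 (adjusted p = 0.011). With stabilized β-catenin, 3 of 11 were lower in WT cells and 1 of 11 was higher in KO cells. Over all genes, 5.95% were called lower in WT cells and 883 of 12151 were called higher in KO cells. The lists were drawn up with earlier results of these data known, so their counts describe these libraries and are no independent evidence. As in all bulk samples, fewer cells with an mRNA and less mRNA per cell cannot be told apart.

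**Figure D4:**
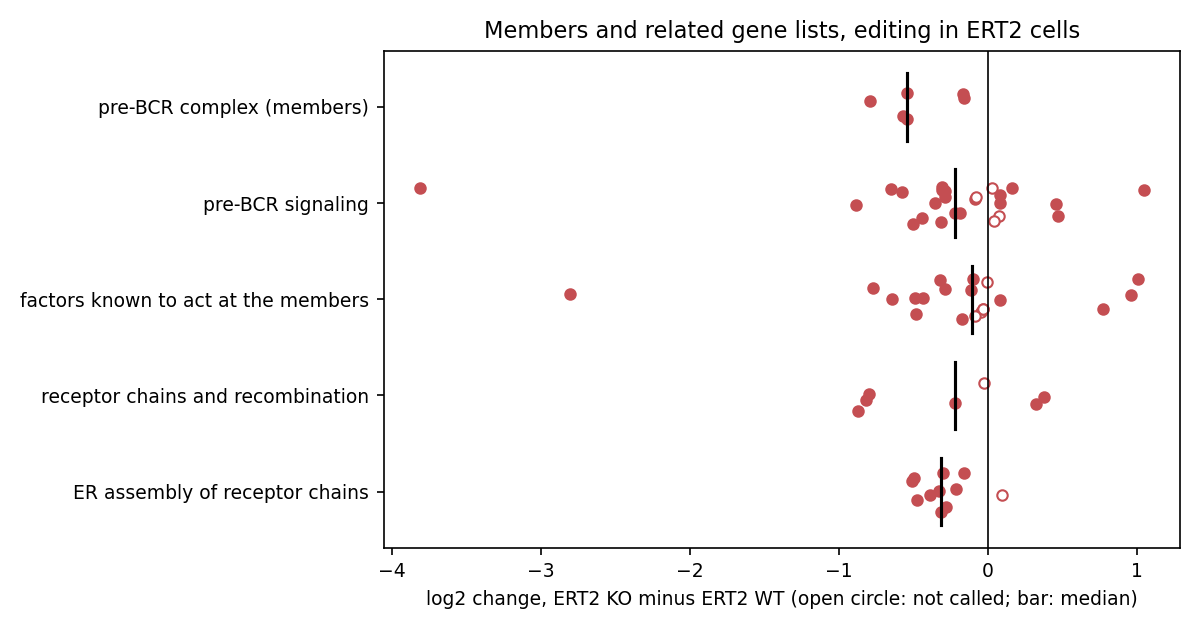
Log2 change between ERT2 KO and ERT2 WT cells (x axis) for the 6 members and the genes of 4 related lists (1 point per gene, spread vertically for clarity); filled circles were called at an adjusted p under 0.05, open circles were not, and black bars mark medians. The members span -0.79 to -0.16, and the ER assembly list lies left of 0 except for Canx.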

How the data were processed

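RNA-seq libraries of 12 samples in 4 groups of 3 were analyzed. The authors quantified reads with Salmon 1.4.0, aligned them with STAR 2.7.6 to mm10 (GRCm38) and used DESeq2 1.30.1, per the labels. The authors deposited 1 normalized log2 value per gene and library for 12151 genes, without counts, so depth per library is unknown and the study's count model was replaced. The transformation is not given in the sources used here, and a variance-stabilizing one would understate changes of weakly expressed genes. All per-sample columns were used.

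Group means were fitted to the log2 values with limma 3.58.1 (R 4.3.3; empirical Bayes with a mean-dependent prior), with Benjamini-Hochberg adjustment over all 12151 genes and calls at an adjusted p under 0.05. The fit was tested on simulated data. Exact 2-sided permutation tests and balances were computed in Python 3.11.15 with numpy 2.4.6. Gene positions came from GENCODE vM21 and promoters from RefSeq, and guide sequences from the study's supplementary list.

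The members and lists were chosen with earlier results of these data known. Named genes were the members, Ikzf1 and Ikzf3, called list genes that changed by at least 0.5 (editing) or 0.25 (β-catenin), at most 5 per list and direction, any listed transcription factor, Ighm-related chains and marker genes beside the result they touch, the nearest measured neighbours, and the 3 genes most correlated with each member. Ebf1, Pax5, Ighm, Igkc and Canx were described with their values also where they were not called.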

Additional observations from a re-analysis of the deposited data

Results flagged for a closer look

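No member of the pre-BCR complex had a β-catenin effect that differed between KO and WT cells in limma. Among the other genes named here, 17 had such a difference at an adjusted p under 0.05, against 4.53% of all genes. It is given as the log2 effect in KO cells minus that in WT cells. Many genes were named for the size of their changes, so this count describes the named genes only. The effect was more positive in KO cells for Dntt (0.47), Lcp2 (0.40), Syk (0.37), Nov (0.35), Zeb2 (0.34), Irf4 (0.25), Lyz2 (0.24) and Calr (0.13). It was more negative for Lck (-0.48), Ets1 (-0.37), Zap70 (-0.24), Arhgef1 (-0.20), Ebf1 (-0.19), Foxo1 (-0.18), Gm867 (-0.13), Ikzf1 (-0.10) and Igkc (-0.079). Gm867, Ikzf1 and Igkc were close to the threshold (adjusted p = 0.044, 0.042 and 0.049 in limma), and Igkc lay near the low end of the table. Syk and Zap70, which encode related kinases, thus stood on opposite sides. Groups of 3 libraries were too small to look for single outlying values.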

How the results depend on the processing

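Calls of the editing comparison in ERT2 cells were kept for all 6 members under every alternative fit, and so were those of Vpreb1, Vpreb2, Vpreb3, Cd79a and Cd79b in Cre-ERT2 cells. For Igll1 in Cre-ERT2 cells, median centring gave -0.098 (adjusted p = 0.0096), past the threshold, and leaving out single libraries gave -0.095 to -0.031. At an adjusted p under 0.01, calls under stabilized β-catenin were lost for Vpreb1 (-0.16) and Cd79b (-0.12) in WT cells and for Vpreb1 (-0.13) and Cd79a (0.089) in KO cells. The same values of Vpreb1 and Cd79a in KO cells (-0.13 and 0.089) were not called with the groups compared alone (adjusted p = 0.097 and 0.077). Leaving out single libraries moved Cd79b in WT cells between -0.14 and -0.094, and in KO cells Vpreb1 between -0.17 and -0.094 and Cd79a between 0.075 and 0.11. The uncalled difference of the β-catenin effect turned sign for Vpreb1 (-0.012 to 0.064 over left-out libraries, negative without Cre-ERT2 KO replicate 2) and for Vpreb2 when it was summed with Vpreb1 (0.0020, chosen after seeing the data). The Igll1 to Vpreb1 balance under stabilized β-catenin passed with quantile normalization (0.050, exact p = 0.005) and ran from 0.019 to 0.035 over left-out libraries, passing without ERT2 WT replicate 3 (0.033, exact p = 0.035). Counts of called genes moved to 787 (WT) and 790 (KO) for β-catenin at an adjusted p under 0.01, to 934 (KO) with the groups compared alone, and to 337 (mean level above 8) and 240 (adjusted p under 0.01) for the difference. Median centring left 0 of 1 calls in the ER assembly list under stabilized β-catenin in KO cells, and the motif shares were 56.2%, 11.8% and 66.2% with the 250 bases before the start alone. The cause of these changes was not tested.

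Replicate numbers did not mark shared material in the labels, and same-numbered libraries deviated together only weakly (r from -0.091 to 0.31 over 18 pairs, against -0.35 to 0.36 for differently numbered ones). With the number as a replicate block, no call of a member changed, Igll1 in Cre-ERT2 cells stayed at -0.065 (adjusted p = 0.11), and 7089 genes were called in the ERT2 editing comparison. Changes under about 0.1 on the log2 scale rest on 3 libraries a group and an unknown depth.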
